A study of Homo sapiens with 6 samples.

Results

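Nuclear transport is carried out by soluble receptors, the GTPase Ran and the nucleoporins that build the nuclear pore, and 60 of the 18417 genes measured in the extracellular vesicles (EVs) belonged to these families by their names. They were chosen by symbol, as genes whose names begin with NUP, KPN, IPO, XPO, TNPO or RANBP followed by a number, with at most 1 letter in between, together with RAN, RANGAP1, CSE1L, NXT1 and TPR, and pseudogenes were left out. The families held 19 importins, 8 export receptors (7 exportins and the cofactor NXT1), 5 genes of the Ran cycle and 24 nucleoporins. Of the other 4 members, RANBP9 and RANBP10 are scaffold proteins named for Ran binding, and NUPR1 and NUPR2 match by their letters only, because they encode stress-responsive nuclear proteins and not nucleoporins. NUP62 and NXF1 had no probe set listed with a single symbol, and no level is given for them.

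Importins bind cargo with a nuclear localization signal in the cytoplasm and release it in the nucleus when they meet Ran bound to GTP. Exportins do the reverse, because they hold their cargo only together with RanGTP and let it go when GTP is hydrolyzed outside the nucleus. RanGAP1 and RanBP1 stimulate that hydrolysis in the cytoplasm, and the exchange factor RCC1 restores RanGTP on chromatin. Exportin-1, encoded by XPO1, carries proteins with a leucine-rich export signal and RNAs that reach it through adaptors such as the cap-binding protein EIF4E. The study asked how CD47 governs the RNA that T cells place in EVs and examined exportin-1 and Ran as protein partners of CD47. It also measured XPO1 mRNA in nuclear and cytoplasmic fractions of the cells, and reported higher cytoplasmic levels in cells without CD47. Here the mRNAs for the transport machinery were followed in the EVs.

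EVs were from WT Jurkat cells (labelled JK, genotype CD47_WT), which derive from a human T cell leukemia, and from their somatic mutant without CD47, JinB8 (genotype CD47_mut), with 3 arrays for each line. Both lines were kept untreated in the serum-free HITES medium for 24 to 48 h, and 300 ng of total EV RNA was labeled for each human Affymetrix gene array. Each genotype is represented by a single cell line, so that CD47 status and any other difference between the lines cannot be told apart, and it is not stated whether each array came from a separate culture, so p values measure the spread between these preparations. A lower share of vesicles that carry an mRNA and fewer copies of it in each vesicle cannot be told apart either. The deposited values are log2 levels from robust multi-array average (RMA), in which arrays are brought to nearly the same distribution, so a level is relative to the other RNAs of its preparation.

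Array medians lay between 5.08 and 5.14, and pairs of arrays correlated with r from 0.981 to 0.989 across genes. WT replicate 3 had the lowest median and was the lowest of the 6 arrays for 22 of the 60 members, against 6 to 10 members for each other array. Over all genes it was the highest array for 12.3%, against 15.8% to 21.0% for each other array, so it ran low beyond the members. Of 12 T cell markers all were measured and 8 lay above the median of the olfactory receptor genes, which T cells are not known to use and which served as a rough gauge of background. CD7 and LCK lay above their 95th percentile, whereas CD2, ZAP70, TRAT1 and PTPRC lay below the median. The summed unlogged level of the 12 markers ran from 807 to 888 in WT EVs and from 926 to 939 in CD47- EVs, and their part in the results below was not tested. CD3E and CD3G had log2 differences of 0.37 and 0.34 and did not pass (adjusted p = 0.112 and 0.172 from limma). Markers of B cells, myeloid cells, erythroid cells, epithelia and liver gave no call, and the 2 genes with the smallest p values in each list (CD79A, MS4A1, MPO, LYZ, ALAS2, HBB, CDH1, KRT8, FGB and SERPINA1) had differences from -0.17 to 0.14. Outside that range, the epithelial marker EPCAM had a difference of -0.22, with uneven CD47- values of 4.14, 5.16 and 3.92. All 6 liver markers lay below 0, where 51.3% of all genes lay above 0.

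No mRNA of the transport machinery was called different between CD47- and WT EVs. Most of these genes, like most genes of the array, lay at or below the median of the background gauge. With limma, fitted over all genes and adjusted with the Benjamini-Hochberg method, 0 of the 60 members passed at an adjusted p under 0.05 in either direction, and the lowest adjusted p was 0.172. Over all genes 0.668% were higher and 0.0163% were lower by the same rule, so a count of 0 among 60 is near that background. At an unadjusted p under 0.05, 9 members were higher and 0 were lower in CD47- EVs, where 5.16% and 2.87% of all genes were. A per-gene test with unshared variance gave 6 higher and 0 lower members at an unadjusted p under 0.05, where 3.25% and 1.94% of all genes were. It also called 0 members after adjustment. With limma, the 9 fell to 4, with 0 lower, without CD47- replicate 1 (all genes 4.97% higher and 2.83% lower). Without WT replicate 3, 5 were higher and 1 was lower (4.01% and 3.17% of all genes). The count became 16 higher and 0 lower (9.32% and 0.70%) once each array was centered on its olfactory receptor genes. Those genes leaned lower in CD47- EVs, with a median difference of -0.05 and 236 of 338 below 0. Centering on them therefore raised the differences, and the median of all genes went from 0.0029 to 0.06.

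Of the 60 log2 differences, 41 were above 0, with a median of 0.04, whereas 51.3% of all genes were above 0 with a median of 0.0029. Without WT replicate 3, 35 of 60 were above 0, with a median of 0.01 for members and of -0.01 for all genes. The 3 CD47- arrays all lay above the 3 WT arrays for 11 members and all below them for 1, where all genes gave 7.3% and 5.53%. The 95% interval of the difference stayed within 0.5 of zero on the log2 scale, a change of 1.41-fold, for 57 of 60 members and for 96.8% of all genes. The exceptions were CSE1L, NUP50 and IPO7, whose upper bounds were 0.50, 0.66 and 0.68. Of the genes that passed anywhere on the array, the smallest difference was 0.36, and every member lay below it. Signal was low for most members, since 44 of the 60 had a mean at or below the olfactory receptor median of 5.49. The same held for 11195 of the 18417 genes. KPNA2 alone among the members exceeded the 95th percentile of 6.79, as did 864 of all genes. Among all genes at or below this median limma called 0.152% higher and 0.0179% lower, against 1.47% and 0.0138% of the genes above it.

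**Figure D1:**
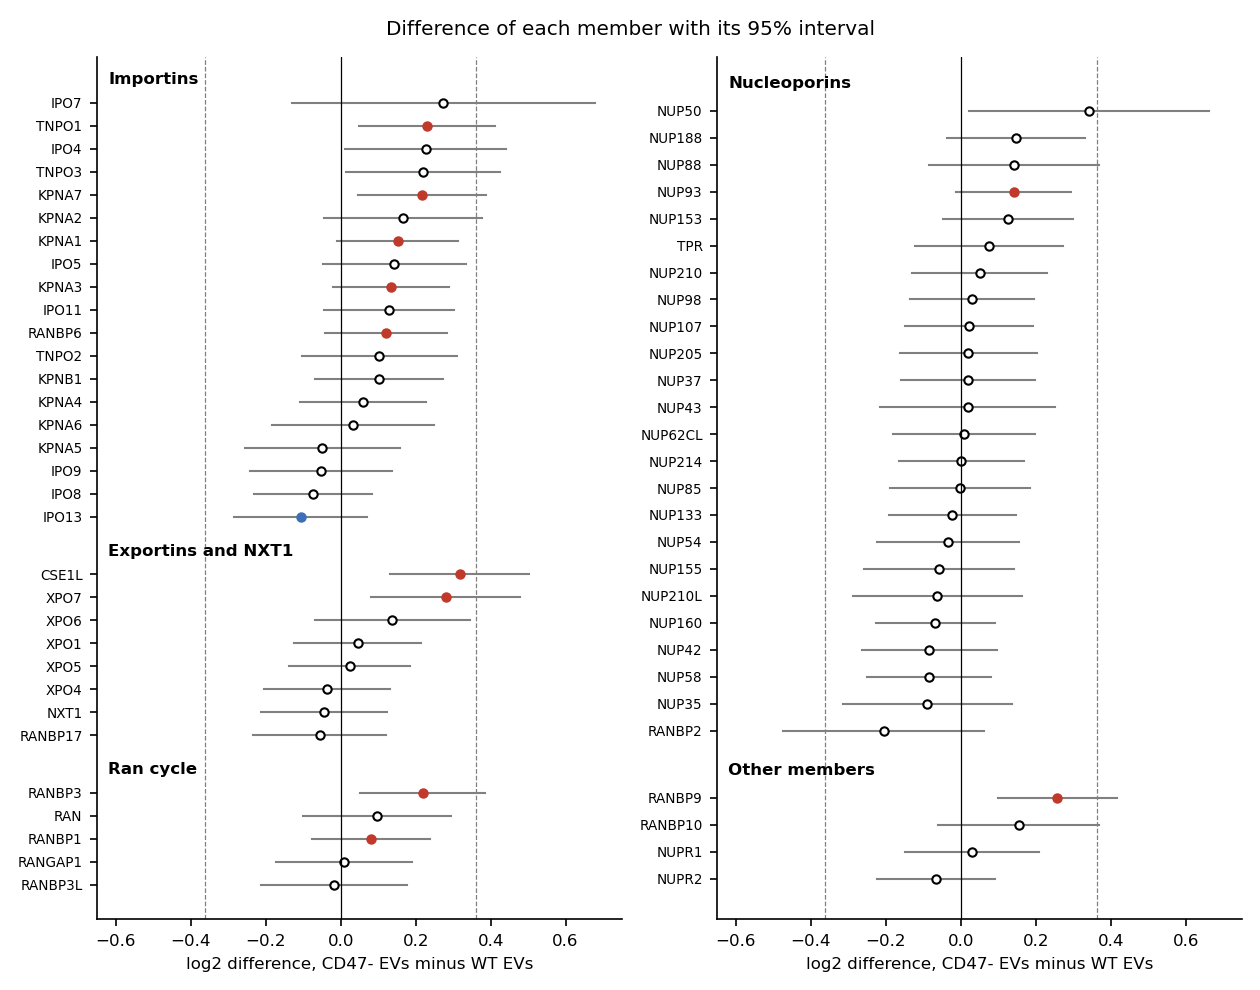
The log2 difference of CD47- minus WT EVs (horizontal axis) is given for each of the 60 members with its 95% interval from limma (bars), by family. Filled red points mark members whose 3 CD47- arrays all lay above the WT arrays, the filled blue point marks IPO13, which lay below, open points mark members whose groups overlapped, and dashed lines mark 0.36, the smallest difference of any gene on the array that passed, which every point stays inside.

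XPO1, the gene of exportin-1, had a dim probe set, above only 21.3% of the olfactory receptor genes. It had log2 values of 4.48, 4.62 and 4.52 in WT EVs and of 4.53, 4.56 and 4.67 in CD47- EVs. The groups overlapped, with the highest value in a CD47- array and the lowest in a WT array. Its log2 difference was 0.05 (standard error 0.08, adjusted p = 0.951 from limma), with a 95% interval from -0.12 to 0.21, or from 0.918-fold to 1.16-fold. At so low a signal these values show neither that the mRNA was present nor that its level was equal. XPO5, whose product exports precursor microRNAs, had a difference of 0.02 (95% interval -0.14 to 0.18), and its sign changed when single arrays were left out. XPO4 had a difference of -0.04 and XPO6, the exportin of actin, of 0.14, which was 0.03 without CD47- replicate 3.

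Among the export receptors the largest differences belonged to CSE1L and XPO7. Both had dim probe sets, above only 18.3% and 36.1% of the olfactory receptor genes. CSE1L encodes the exportin that returns importin alpha to the cytoplasm after import. Its log2 values were 4.45, 4.34 and 4.16 in WT EVs and 4.62, 4.61 and 4.67 in CD47- EVs. Every CD47- array lay above every WT array, by at least 0.16, and the WT arrays were the more spread. The log2 difference was 0.32 (standard error 0.09), which had the lowest p of all members but did not pass (adjusted p = 0.172 from limma), and it was 0.24 without WT replicate 3. XPO7, a broad-specificity exportin, had values of 4.98, 4.95 and 4.97 in WT EVs and 5.41, 5.06 and 5.27 in CD47- EVs. The groups were apart, and the CD47- arrays varied far more than the WT arrays. Its difference of 0.28 (standard error 0.09, adjusted p = 0.328 from limma) was 0.20 without CD47- replicate 1. RANBP17, a close relative of XPO7, had a difference of -0.06, and NXT1, a cofactor of bulk mRNA export and the brightest gene of this family, of -0.04. Over these 8 genes, 7 exportins and NXT1, the median difference was 0.03, with 5 above 0. Over the 7 exportins alone it was 0.045.

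**Figure D2:**
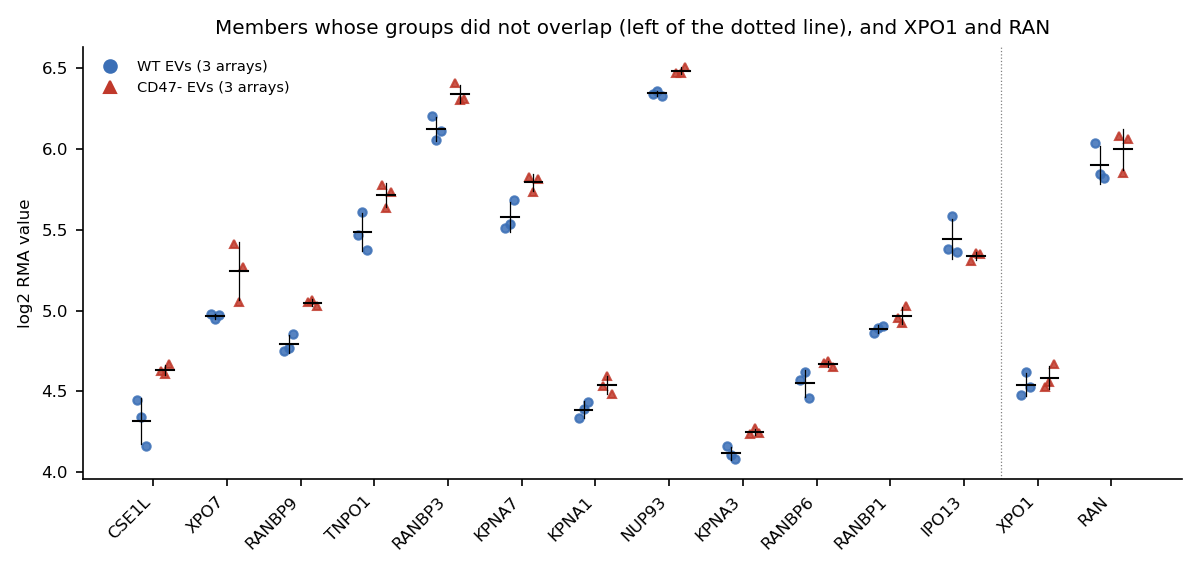
Log2 RMA values (vertical axis) in the 3 WT (blue circles) and 3 CD47- arrays (red triangles) are plotted for the 12 members whose groups did not overlap, left of the dotted line, and for XPO1 and RAN, with means and SD in black. CSE1L and RANBP9 are parted by 0.16 and 0.17, RANBP1 and IPO13 by only 0.01 and 0.0054, and XPO1 and RAN overlap.

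None of the 5 genes of the Ran cycle passed. RAN had log2 values of 6.04, 5.84 and 5.82 in WT EVs and of 6.08, 5.85 and 6.06 in CD47- EVs. These overlapped over most of their range, and the difference was 0.10 (standard error 0.09, adjusted p = 0.891 from limma), with a 95% interval from -0.10 to 0.29. A second probe set listed for RAN was dimmer, with values of 4.75, 4.83 and 4.35 in WT EVs and 4.97, 4.89 and 5.10 in CD47- EVs. There the groups did not overlap and the difference was 0.34, which did not pass when every probe set with a single symbol was tested (adjusted p = 0.342 from limma). RAN has processed pseudogenes that were not separated here, and its value is therefore uncertain. RANBP1, which joins RanGAP1 in releasing exportin-1 from RanGTP, had values of 4.86, 4.89 and 4.91 in WT EVs and 4.96, 4.92 and 5.03 in CD47- EVs. The CD47- arrays were all above the WT arrays but by as little as 0.01, and the difference was 0.08 (standard error 0.07, adjusted p = 0.882 from limma).

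RANBP3, a cofactor that loads cargo onto exportin-1 in the nucleus, stood further apart. Its values were 6.21, 6.06 and 6.11 in WT EVs and 6.41, 6.31 and 6.31 in CD47- EVs. All CD47- arrays exceeded all WT arrays by at least 0.10, and the difference was 0.22 (standard error 0.08, adjusted p = 0.387 from limma). RANGAP1, the GTPase-activating protein of Ran, had values of 6.28, 6.47 and 6.34 in WT EVs and 6.40, 6.45 and 6.27 in CD47- EVs. Here the groups overlapped fully, with a difference of 0.01 (95% interval -0.17 to 0.19). RANBP3L, a relative of RANBP3, had a difference of -0.02. The median of the 5 genes was 0.08, with 4 above 0.

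Importins had the highest median difference of the 4 families, 0.13, and 15 of 19 were above 0. The median was 0.0751 without WT replicate 3, and the difference between families was not tested. Of these 19 genes 5 had CD47- arrays all above the WT arrays and 1 had them all below, where all genes gave 7.3% and 5.53%. TNPO1, or transportin-1, which imports RNA-binding proteins such as hnRNP A1, had values of 5.47, 5.61 and 5.38 in WT EVs and 5.78, 5.64 and 5.73 in CD47- EVs. The groups were apart by 0.02, with a difference of 0.23 (standard error 0.08, adjusted p = 0.421 from limma). TNPO3, the importin of SR splicing factors, had a difference of 0.22, and IPO4, which imports histones and ribosomal proteins, of 0.23. Both overlapped between the groups, and the value of IPO4 was 0.34 without WT replicate 2 and 0.16 without WT replicate 1. IPO7 had values of 3.77, 3.65 and 3.79 in WT EVs and 3.85, 4.59 and 3.60 in CD47- EVs. A single high array, CD47- replicate 2, gave it the largest difference of the family, 0.27, and without that array the difference was -0.01. In level IPO7 lay above only 10.1% of the olfactory receptor genes.

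The importin alpha genes encode the adaptors that recognize the classical localization signal, and KPNB1 encodes the importin beta that carries them. Of the 7 alpha genes 6 had differences above 0, with a median of 0.13. Like 7.3% of all genes, KPNA7, KPNA1 and KPNA3 had CD47- arrays all above the WT arrays, with differences of 0.22, 0.15 and 0.13. They were chosen after their values were seen, as was RANBP6, an importin beta relative with a difference of 0.12 and separated groups. KPNA7 lay above 57.7% of the olfactory receptor genes in level, but KPNA1, KPNA3 and RANBP6 above only 18.3%, 13.6% and 21.6%. KPNA2, the brightest member, had values of 7.26, 7.16 and 6.90 in WT EVs and 7.29, 7.18 and 7.35 in CD47- EVs. The groups overlapped, with a difference of 0.17 on this probe set and 0.15 on its second one, and WT replicate 3 was the lowest array on both. KPNB1 had a difference of 0.10 with overlapping groups.

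IPO5, an importin of ribosomal proteins and histones, was among the proteins that the study recovered with CD47. Its mRNA had values of 4.17, 3.998 and 4.10 in WT EVs and 4.09, 4.35 and 4.25 in CD47- EVs. They overlapped, with a difference of 0.14 (standard error 0.09, adjusted p = 0.768 from limma). In level IPO5 lay above only 13.6% of the olfactory receptor genes. At the other end of the family, IPO13 and IPO8 had differences of -0.11 and -0.07. All CD47- arrays of IPO13 lay below its WT arrays, by a margin of 0.0054, and its difference was -0.04 without WT replicate 2. None of the importins passed.

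**Figure D3:**
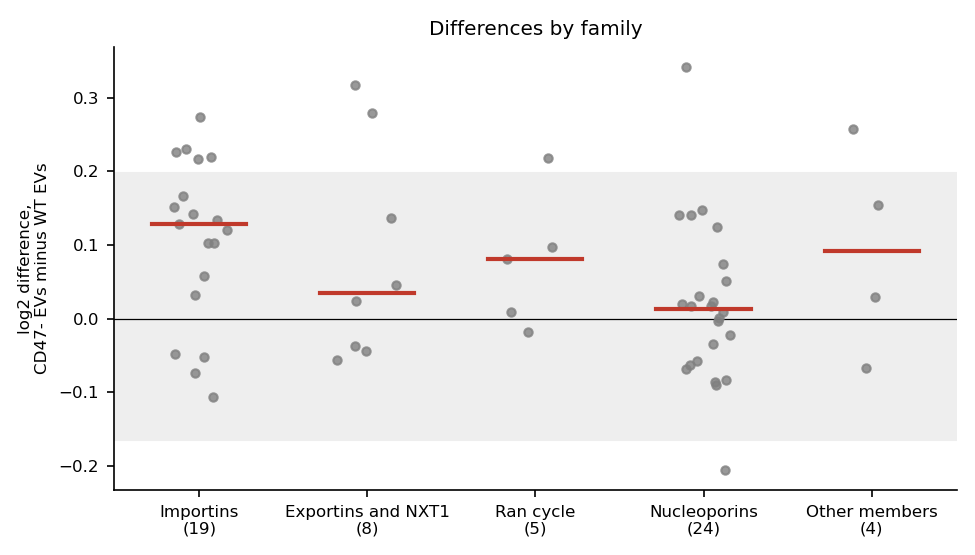
Log2 differences of CD47- minus WT EVs (vertical axis) are plotted for each member (grey points) by family, with the number of genes in parentheses and the family median as a red bar. The shaded band spans the 5th to 95th percentile of all genes, -0.17 to 0.20, and 10 members lie above it and 1, RANBP2, below it.

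Nucleoporins had a median difference of 0.01 over 24 genes, with 14 above 0. In level 21 lay at or below the olfactory receptor median, as did 11195 of all 18417 genes. The median difference was -0.02 without WT replicate 3. The Y complex forms the outer rings of the pore, and its 6 measured genes, NUP107, NUP133, NUP160, NUP37, NUP43 and NUP85, had differences from -0.07 to 0.02. In each of them the groups overlapped. The inner ring genes ranged from -0.09 for NUP35 to 0.15 for NUP188. With single arrays left out NUP35 ran from -0.21 without WT replicate 3 to -0.02 without WT replicate 2, and NUP188 from 0.08 without WT replicate 3 to 0.22 without WT replicate 1. NUP205, an inner ring scaffold, was another protein that the study recovered with CD47. Its mRNA had values of 4.33, 4.37 and 4.17 in WT EVs and 4.21, 4.33 and 4.39 in CD47- EVs. These overlapped fully, with a difference of 0.02 (95% interval -0.16 to 0.20).

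NUP93, which anchors the inner ring, was the only 1 of the 24 nucleoporins whose groups did not overlap. Over all genes, 7.3% were apart with CD47- arrays higher and 5.53% with them lower. NUP93 had values of 6.34, 6.36 and 6.33 in WT EVs and 6.47, 6.47 and 6.51 in CD47- EVs. The arrays of each group lay close together and the groups were parted by 0.11, but the difference was only 0.14 (standard error 0.07, adjusted p = 0.671 from limma). The channel genes NUP54, NUP58, NUP98 and NUP62CL had differences from -0.09 to 0.03. The membrane nucleoporin NUP210 had a difference of 0.05 and its relative NUP210L of -0.06.

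The 3 genes of the nuclear basket, where cargo meets the pore from inside, were all above 0, with 0.07 for TPR and 0.13 for NUP153. NUP50, a basket protein that also binds importin alpha, had values of 5.17, 5.28 and 4.67 in WT EVs and 5.49, 5.13 and 5.52 in CD47- EVs. WT replicate 3 was far below the other arrays, and the groups overlapped. Its difference was the largest of all members, 0.34 (standard error 0.15, adjusted p = 0.575 from limma), and was 0.16 without WT replicate 3. On the cytoplasmic face, NUP88 had a difference of 0.14, which was 0.03 without CD47- replicate 1, NUP214 of 0.00089 and NUP42 of -0.08.

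RANBP2, the large Ran-binding nucleoporin of the cytoplasmic filaments, had values of 4.84, 5.04 and 5.21 in WT EVs and 4.83, 5.06 and 4.57 in CD47- EVs. The groups overlapped, with the lowest value in CD47- replicate 3. The difference, -0.21 (standard error 0.12, adjusted p = 0.757 from limma), was the lowest of all members, and it was -0.08 without that array. The RGPD genes are near-identical copies of part of RANBP2. A further 8 probe sets listed for RANBP2 together with them had differences from -0.05 to 0.06. Some of these probe sets gave identical values on every array, so they are not all separate readings. Because of the copies, the value of RANBP2 is uncertain.

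RANBP9, a scaffold of a ubiquitin ligase complex, had values of 4.75, 4.77 and 4.86 in WT EVs and 5.06, 5.07 and 5.03 in CD47- EVs, and is named here after its values were seen. Both groups were tight and parted by 0.17, with a difference of 0.26 (standard error 0.07, adjusted p = 0.211 from limma). In level RANBP9 lay above only 31.7% of the olfactory receptor genes. RANBP10, a close relative, had a difference of 0.15 with overlapping groups, and NUPR1 and NUPR2 had 0.03 and -0.07.

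Other genes of nuclear transport outside these names showed no calls either. Of 25 further pore and transport genes 18 were measured and 0 passed (all genes 0.668% higher and 0.0163% lower), with 13 above 0 and a median difference of 0.06. At an unadjusted p under 0.05 limma gave 0 of them (all genes 5.16% higher and 2.87% lower), and SENP1 and AAAS, a SUMO protease and a pore protein, had the smallest p values with differences of 0.14 and 0.16. Of 20 listed mRNA export adaptors and cap-binding proteins 18 were measured and 0 passed, and 3 had positive differences at an unadjusted p under 0.05, against the same shares of all genes. ALYREF, the adaptor that hands mRNA to the export receptor, had a difference of 0.34 (adjusted p = 0.254 from limma) and THOC7, a subunit of the THO complex, of 0.25. Both overlapped between the groups, and THOC7 lay above only 5.6% of the olfactory receptor genes in level. In this list 2 genes had CD47- arrays all above the WT arrays and 1, FYTTD1 with -0.16, all below (all genes 7.3% and 5.53%). RCC1 shares its probe set with the noncoding SNHG3, and this probe set had a difference of 0.07.

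CD47 and the adapters that bind its cytoplasmic tail were followed beside the machinery. CD47 mRNA had a difference of 0.02 and its probe set did not tell the lines apart, so it does not check the labels. UBQLN1, which encodes ubiquilin-1, an adapter of CD47 that the study also recovered with exportin-1, was higher in CD47- EVs. Its log2 values were 5.30, 5.40 and 5.32 in WT EVs and 5.69, 5.73 and 5.78 in CD47- EVs. Their mean of 5.54 was near the olfactory receptor median of 5.49 and above 51.8% of those genes, so the signal was low. The lowest CD47- array lay well above the highest WT array, and the difference was 0.40 (standard error 0.07, adjusted p = 0.0297 from limma), or 1.32-fold (95% interval of the log2 difference 0.24 to 0.56). This call was lost without any 1 of the 6 arrays (adjusted p from 0.0582 to 0.145), with the replicate number as a block (0.0669) and with unshared variance (0.729), although the difference stayed between 0.37 and 0.46 over all the alternatives run. UBQLN2, which encodes a relative of ubiquilin-1, had a difference of 0.01 with overlapping groups. In the cells rather than the EVs, the study reported from RNA sequencing that UBQLN1 mRNA was similar in both lines and UBQLN2 mRNA low.

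**Figure D4:**
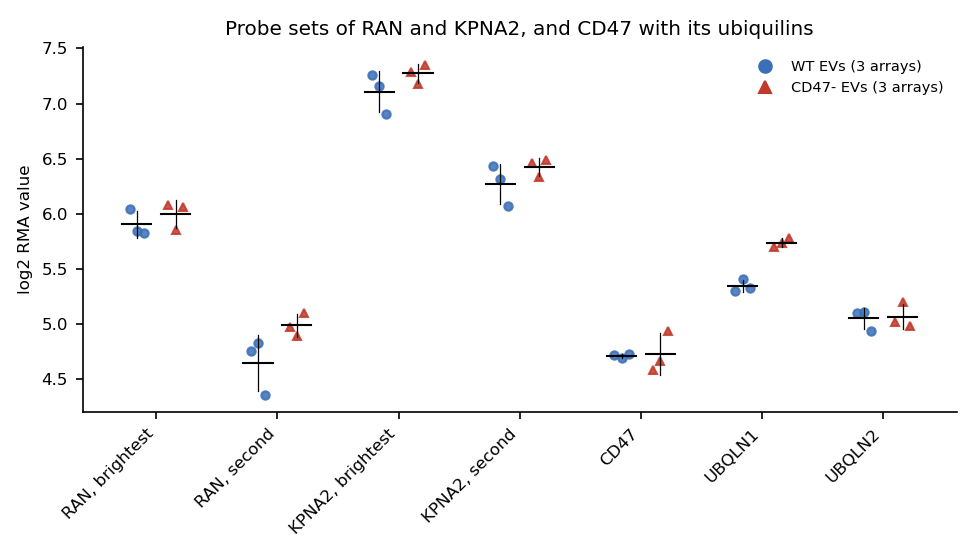
Log2 RMA values (vertical axis) in 3 WT (blue circles) and 3 CD47- arrays (red triangles) are plotted for both probe sets of RAN and of KPNA2 and for CD47, UBQLN1 and UBQLN2, with means and SD in black. UBQLN1 and the second RAN probe set are separated between the groups, with differences of 0.40 and 0.34, whereas the others overlap.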

How the data were processed

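RNA of EVs from WT and CD47- cells was hybridized to 6 Affymetrix whole-transcript arrays, and groups and replicate numbers were taken from the submitters' labels. The deposited values are log2 levels that the authors made with RMA in Affymetrix Expression Console, per the labels. The sources used here give neither tool versions nor a genome build, so no coordinates are printed. Of 33297 probe sets, 19460 had 1 symbol in the platform annotation, and the brightest by the mean of the 6 arrays stood for each of 18417 genes. The 60 members all matched a RefSeq gene, and 1 pseudogene, NUP210P1, was left out. limma 3.58.1 in R 4.3.3 (lmFit and eBayes, adjusted p under 0.05) was fitted over all genes with no filter on dim genes, and intervals cover 95%. The step was tested on simulated data. The planted changes were larger than any member difference, so the test cannot show whether changes as small as those would be found. The number of arrays, 3 per group, limits precision. The olfactory receptor gauge used 338 genes.

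The members and lists were chosen with earlier results of these data known. Named were members that passed, those the study names, and in each family the 4 largest positive and 2 largest negative differences, and in each list the genes that passed or the 2 with the smallest p. Other members are named to complete a family, after their values were seen. Alternatives were the replicate block, centering, quantile normalization, variance model, array weights, a dim filter, unshared variance, other probe set choices and leaving out each array. A fit of all probe sets together was added after the data were seen. No list was tested as a set.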

Additional observations from a re-analysis of the deposited data

Results flagged for a closer look

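The second probe set listed for RAN, which the comparison by gene does not use, had all 3 CD47- arrays above all 3 WT arrays, with a log2 difference of 0.34 (unadjusted p = 0.0331, adjusted p = 0.542 from limma over all probe sets together). The brighter RAN probe set had 0.10.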

How the results depend on the processing

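The count of members that passed was 0 in each direction under every alternative run, also with the replicate number as a block (0 higher and 0 lower) and with all probe sets tested together, while the number of genes that passed anywhere on the array went from 126 to 244 after centering on the olfactory receptor genes, to 54 without WT replicate 3, to 59 and 79 without CD47- replicates 3 and 2, and to 1 with unshared variance. The lowest adjusted p of any member was 0.0544, for CSE1L after that centering. The replicate numbers did not pair the arrays (correlations of same-numbered deviations from -0.04 to 0.02), and the block lost the call of UBQLN1 (adjusted p = 0.0669). Centering moved the medians of importins, export receptors, Ran cycle genes and nucleoporins to 0.19, 0.10, 0.14 and 0.0746. The median of all genes moved to 0.06. With genes above the olfactory receptor median alone, the importin median was 0.19 and that of the export receptors, then NXT1 alone, was -0.0443. Leaving out each array gave medians from 0.0751 to 0.15 for importins and 0.01 to 0.06 for export receptors. For the Ran cycle they ran from 0.06 to 0.10 and for nucleoporins from -0.02 to 0.03. Centering turned NXT1, RANBP17 and RANBP3L to 0.0172, 0.0051 and 0.0435, and a further quantile normalization turned RANGAP1 to -0.0176. With single arrays left out, RANGAP1 ranged from -0.0322 to 0.0629, NUP205 from -0.0408 to 0.0705, RANBP3L from -0.0818 to 0.0684, XPO5 from -0.00899 to 0.0440 and IPO7 from -0.0135 to 0.48. The cause of these changes was not tested. Of 386 values of single genes under the alternatives, 363 kept direction and side of the threshold. Direction could not change under the replicate block, variance model, unshared variance or dim filter, which leave each difference as it was. The same holds for other probe set choices where a gene has 1 probe set. The tally therefore overstates how stable the directions are. Most members are dim, which limits what a difference near 0 can show.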
